A study of Mus musculus with 2 samples.

Results

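Delta cells, the somatostatin-producing cells of the pancreatic islet, were taken from 2 droplet-based single-cell RNA sequencing libraries of mouse islets by the share of their transcripts that came from Sst, the somatostatin gene. Transcripts are counted as unique molecular identifiers (UMIs), 1 for each captured molecule. A cell was kept if at most 10% of its UMIs came from mitochondrially encoded genes. A kept cell was a member if Sst made up at least 2% of its UMIs, if Sst had more UMIs than Gcg (glucagon) and than Ppy (pancreatic polypeptide), and if the insulin genes Ins1 and Ins2 together stayed below 10%. The rule found 344 cells among 8674 kept cells, 225 of 4151 in the transgenic and 119 of 4523 in the wild type (WT) library. The values that chose them (Sst, Gcg, Ppy, insulin and mitochondrial UMIs) are given as descriptions.

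Delta cells are scattered among the other endocrine cells of the islet and release somatostatin when glucose rises. Somatostatin acts on receptors of neighbouring cells and holds back the release of both insulin and glucagon. The transcription factor Hhex is needed to make and keep delta cells in the mouse.

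The study set islets of mice carrying a beta cell specific miR-503 transgene (labelled βTG miR-503) beside islets of WT mice, all C57BL/6 and at postnatal day 70. The promoter that drives the transgene and the number of mice behind each library are not given in the sources used here. Each genotype has 1 library, so no difference between genotypes has a replicate check, no test was made, and the 95% intervals cover counting error only. Besides delta cells, 3 classes were set by the same kind of rule: alpha cells (Gcg at least 2% and the highest of Gcg, Sst and Ppy, insulin below 10%), gamma cells (likewise for Ppy) and beta cells (insulin at least 10%, each of Sst, Gcg and Ppy below 2%). They held 747, 162 and 2718 cells in the transgenic library, and 486, 166 and 3395 in the WT library, in the order alpha, gamma, beta. Kept cells in none of the classes with Sst, Gcg and Ppy below 2% and insulin below 10% (no-hormone cells, 207 transgenic and 217 WT) show how much hormone RNA drifts into a droplet from the suspension.

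The deposited transgenic matrix held 4158 barcodes with 109243270 UMIs and the WT matrix 4540 barcodes with 104677537 UMIs. Delta cells were shallow beside the other hormone classes. They had a median of 9425 UMIs and 2758 detected genes in the transgenic library, and 8803 UMIs and 2722 genes in the WT library. Alpha cells had a median of 15145 and 15674 UMIs and beta cells 29054 and 23153 UMIs in the transgenic and WT libraries. The libraries shared 25 cell barcodes, and 1 delta cell of each library carried a shared one. Xist, made from the inactive X of female cells, was found in 31 of 225 transgenic and 0 of 119 WT delta cells. The Y-linked gene Ddx3y was found in 121 of 225 transgenic and 73 of 119 WT delta cells, so cells of both sexes were seen in the transgenic library only.

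The sequences shown are the miRNA that the transgene carries and the promoter of the gene that defines the cells. The transgene encodes miR-503, whose mature strand pairs with target transcripts through its seed, and which the 3' capture of long transcripts does not read. The stretch before the start of Sst is where the cAMP response element was first described. Both were taken from RefSeq tables on GRCm38.p6, where the mature miRNA lies on the minus strand at chrX:53054027-53054049 and the 250 bases before the Sst start on the minus strand at chr16:23890845-23891094.
mmu-miR-503-5p: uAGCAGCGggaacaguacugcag
Sst promoter: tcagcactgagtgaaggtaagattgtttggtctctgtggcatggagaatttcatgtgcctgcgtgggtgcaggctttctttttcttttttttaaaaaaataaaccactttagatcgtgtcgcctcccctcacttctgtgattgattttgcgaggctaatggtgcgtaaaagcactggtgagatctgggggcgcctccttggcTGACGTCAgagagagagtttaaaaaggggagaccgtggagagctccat
In the miRNA the capitals mark the seed, bases 2 to 8, whose DNA target match is CGCTGCT. In the promoter they mark the palindromic element TGACGTCA, which reads the same on both strands. It occurs 1 time in this window and ends 40 bases before the start. Of 32851 RefSeq promoter entries, 508 (1.55%) hold the same letters in the 250 bases before the start. The match is a description of the sequence and says nothing of binding.

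The delta label was checked against 7 markers, of which Sst had chosen the cells and so is no check. To compare levels, the UMIs of each class and library were added up and divided by a total scaled with trimmed mean of M-values (TMM) factors. The result, in scaled CPM (UMIs per 1000000 of the scaled total), sets a gene against the many genes that differ little between classes, and so depends less on how much RNA a hormone takes. Levels are compared between cells and not between genes. All 7 markers were detected in the delta cells of both libraries, Sst by the rule itself. Hhex stood at 99.7 scaled CPM in the transgenic and 95.6 scaled CPM in the WT library, against at most 18.8 and 11.9 in another class. Ly6h stood at 221 scaled CPM in the transgenic and 244 scaled CPM in the WT library, and Fam159b, a transmembrane protein gene, at 377 scaled CPM in the transgenic and 323 scaled CPM in the WT library. Both were again highest in delta cells. Rbp4, a retinol carrier, reached 1895 scaled CPM in the transgenic and 2210.0 scaled CPM in the WT library, with 818 and 853 in alpha cells, so it marked delta cells less sharply. Ffar4, a receptor for long-chain fatty acids, reached 139 scaled CPM in the transgenic and 143 scaled CPM in the WT library, with 70.1 and 65.7 in gamma cells. Arg1, the arginase that makes ornithine and urea, reached 124 scaled CPM in the transgenic and 128 scaled CPM in the WT library.

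Markers of cell types outside the islet's endocrine cells were low with few exceptions, while some markers of alpha and gamma cells were not. The gamma cell marker Tspan8 was at 161 scaled CPM in transgenic and 147 in WT delta cells, against 221 and 165 in gamma cells. The alpha cell markers Gc and Tmem27 were at 90.4 and 409 in transgenic and 93.9 and 339 in WT delta cells, against 150.3 and 817 in transgenic and 132 and 641 in WT alpha cells. The 4 ductal markers summed to 124 and 115, most of it Krt7 at 110.1 and 100.7, a gene that was at 185 and 172 in beta cells. The endothelial marker Cdh5, the macrophage marker Adgre1, the Schwann cell marker Sox10 and the mesenchymal markers Col1a1 and Pdgfrb were at 0 in the delta cells of both libraries. The summed endothelial markers came to 11.3 scaled CPM in transgenic and 17.4 in WT delta cells, and no delta cell held more than 3 UMIs of them. The 6 macrophage markers summed to 74.01 and 60.7 scaled CPM, most of it C1qa at 62.97 and 54.6. The 6 acinar enzymes, none of them at 0, summed to 69.8 scaled CPM in transgenic and 14.1 in WT delta cells, with single cells between 0 and 7 and between 0 and 5 UMIs. The summed acinar markers were also higher in transgenic than in WT alpha cells (87.3 and 44.2) and beta cells (90.2 and 27.9). The part of acinar RNA in the results below was not tested.

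Few cells sat near the Sst and insulin limits of the rule. Sst ran from 3.46% to 34.4% of UMIs in transgenic members and from 2.55% to 23.2% in WT members. Just outside, the highest Sst share among cells that met the other limits was 1.07% in the transgenic and 1.99% in the WT library, and only 1 and 2 such cells lay between 1 and 2%. Members held at most 9.12% insulin in the transgenic and 7.53% in the WT library, while the lowest insulin share among droplets that met the Sst limits but not the insulin limit was 11.3% and 12.9%. There were 16 such insulin-rich droplets with Sst in the transgenic and 21 in the WT library, with a median of 30293 and 24328 UMIs. The boundary with the other hormones was less clean: 75 transgenic and 34 WT cells had at least 2% Sst but more Gcg, and 37 and 28 had at least 2% Sst but more Ppy. Those cells count as alpha or gamma cells here. No doublet was removed, because the doublet caller Scrublet marked 3 transgenic and 2 WT cells, too few for the caller to have worked. Its highest 4% of scores held 3 of 225 transgenic and 0 of 119 WT delta cells, against 9 of the 16 and 3 of the 21 insulin-rich droplets with Sst.

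Delta cells made up 5.42% of kept transgenic cells (4.75 to 6.15, exact Clopper-Pearson 95% interval) and 2.63% of kept WT cells (2.18 to 3.14). The intervals did not overlap, but cells of 1 dissociation are not replicates of a genotype. Beta cells, the largest class, made up 65.5% of transgenic and 75.1% of WT cells, which moves every other share. Among alpha, delta and gamma cells alone, delta cells were 19.8% (17.6 to 22.3) in the transgenic and 15.4% (12.96 to 18.2) in the WT library, and there the intervals overlapped. More delta cells in the islets and better survival of delta cells in the suspension cannot be told apart. When the members with at least 2% of Ppy or Gcg were left out, a choice made after seeing the data, the shares were 1.66% of transgenic and 1.17% of WT cells.

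Sst, the hormone that chose the cells, was at a median of 1064 UMIs or 10.9% per transgenic delta cell, with quartiles of 8.12% and 13.9%. In WT delta cells it was at a median of 828 UMIs or 9.01%, with quartiles of 6.44% and 12.3%. The quartile ranges overlapped widely. Summed over cells, Sst took 11.04% of transgenic and 9.58% of WT delta UMIs, a log2 ratio of 0.24 (0.23 to 0.25) after scaling. The difference of 1.46 percentage points was 3.40 without members holding at least 2% of Ppy or Gcg and 0.942 with an Sst limit of 5%. Free Sst RNA differed too: no-hormone cells held a median of 0.0288% in the transgenic and 0.0153% in the WT library. In beta cells the Sst ratio was 0.83 and in alpha cells 0.46.

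**Figure D1:**
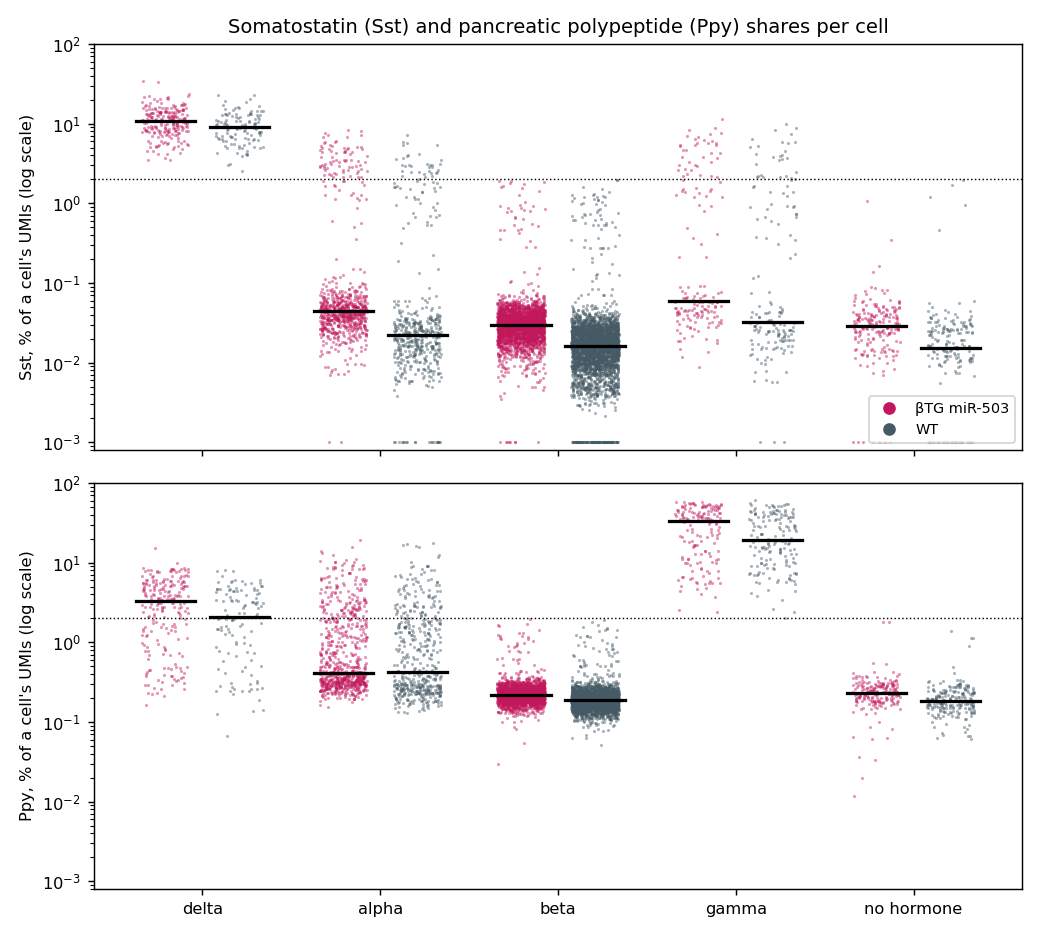
Shares of Sst (top) and Ppy (bottom) in single cells of each class, as percent of a cell's UMIs on log axes, βTG miR-503 left of WT; every point is a cell, black bars are medians, the dotted line is the 2% limit, and cells at 0 are drawn at the bottom edge. Delta cells stand at a median Sst share of 10.9% in transgenic and 9.01% in WT cells, and their Ppy spreads from the level of no-hormone cells to the lower part of the gamma range.

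Many delta cells also held Ppy, the pancreatic polypeptide gene that otherwise marks gamma cells. Ppy was at a median of 307 UMIs (3.32%) in transgenic and 206 UMIs (2.1%) in WT delta cells. No-hormone cells, of like depth (median 9459 and 9075 UMIs), held 0.234% and 0.183%. Ppy passed the 99th percentile of the no-hormone cells in 84% of transgenic (78.5 to 88.5) and 68.1% of WT delta cells (58.9 to 76.3). The same was true of 40.6% and 35.2% of alpha cells, but of 1.104% and 0.442% of beta cells. That percentile was 0.55% in the transgenic and 1.08% in the WT library, so the shares of the libraries rest on unlike limits. The log2 ratio of Ppy between transgenic and WT delta cells was 0.50 (0.48 to 0.52), beside 0.54 in gamma and 0.54 in beta cells. In alpha cells it had the opposite sign, at −0.13 (−0.14 to −0.12). Since the rule caps Ppy below Sst, these values describe the members only.

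Members with at least 2% Ppy numbered 150 of 225 (66.7%) in the transgenic and 61 of 119 (51.3%) in the WT library, and members below 1% numbered 51 and 37. Both kinds had like depth, with medians of 9346 and 9641 UMIs in the transgenic and 8851 and 8883 UMIs in the WT library, Ppy-rich cells first. Their Sst shares were 10.2% and 13.8% in the transgenic and 9.01% and 10.6% in the WT library. Few other genes separated them. Of 4352 genes measured, 2 (0.046%) were at least 2-fold higher in the Ppy-rich cells of both libraries, and 0 were at least 2-fold lower. The first is Ppy itself. The other, Mthfd2, a mitochondrial enzyme of folate metabolism, stood at a log2 ratio of 1.26 (0.41 to 2.22) in the transgenic and 1.005 (0.02 to 2.09) in the WT library. Hhex stood at 0.11 and 0.04 and the gamma cell marker Tspan8 at 0.0039 and 0.22. With few UMIs per gene these sums can show large differences only. The highest 4% of doublet scores held 3 transgenic and 0 WT Ppy-rich members.

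**Figure D2:**
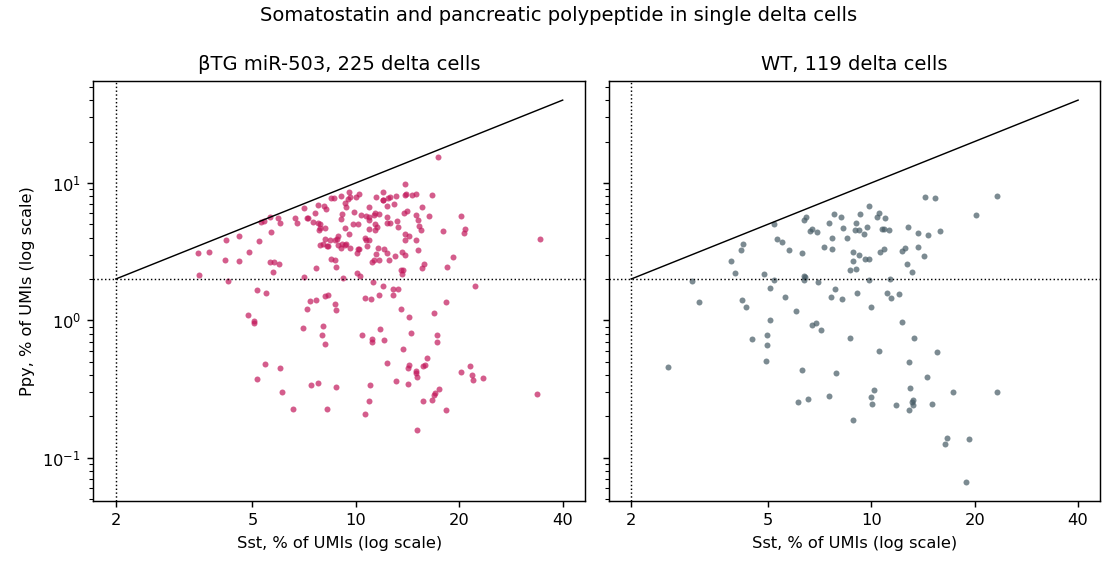
Sst against Ppy in each delta cell, as percent of its UMIs on log axes, βTG miR-503 left and WT right; dotted lines stand at 2% and the solid line marks equal shares, above which the rule admits no cell. Members with at least 2% Ppy are 150 of 225 transgenic and 61 of 119 WT cells.

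Of the other islet hormones, delta cells held more Pyy and Iapp than no-hormone cells by their medians. Pyy, encoding peptide YY, made up a median of 2.24% of transgenic and 2.09% of WT delta UMIs, against 0.0432% and 0.0408% in no-hormone cells. Iapp, the islet amyloid polypeptide that beta cells release with insulin, made up 2.64% and 2.55%, against 0.433% and 0.487% in no-hormone and 0.651% and 0.6395% in alpha cells. Pyy passed the 99th percentile of no-hormone cells (1.29% and 1.46%) in 79.1% of transgenic and 69.7% of WT delta cells. Iapp passed it (6.34% and 15.02%) in 1 of 225 transgenic and 0 of 119 WT delta cells. Only 2.39% of transgenic and 0.0884% of WT beta cells passed that Iapp limit. It therefore cannot separate cells that make Iapp from cells with free Iapp RNA. Pyy and Iapp were at like shares in the delta cells of the libraries. Gcg made up 0.3095% and 0.197%, against 0.274% and 0.177% in no-hormone cells. The insulin genes made up 2.79% and 2.41%, against 2.55% and 2.297%. Glucagon and insulin RNA in most delta cells was near the level of no-hormone cells. Both groups were chosen with limits on Gcg and insulin, so these values describe the chosen cells only.

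Sst included, 62 of 4537 measured genes (1.37%) were at least 2-fold higher in delta cells than in each of the other classes in both libraries. Highest in delta cells by any amount in both libraries were 16.3% of the genes. The named genes with the largest folds included regulators, synaptic genes and surface proteins. Gamma or alpha cells came next in each case but Traf5 in the WT library, where beta cells did. Scaled by total UMIs in place of TMM, 226 genes passed, all 62 among them. Without members holding at least 2% of Ppy or Gcg 38 passed, all of them among the 62.

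Ppp1r17 (GRCm38 chromosome 6, 56017497 to 56032689), which encodes an inhibitor of protein phosphatases, came first by the smaller of the folds of both libraries, Sst being left out. It was at 44.5 scaled CPM in the transgenic and 75.9 scaled CPM in the WT library, 5.84-fold in the transgenic and 7.29-fold in the WT library above the next class. Neurog3 (chromosome 10, 62133090 to 62134763), which starts the endocrine programme in the embryo, was at 24.8 scaled CPM in the transgenic and 21.4 scaled CPM in the WT library, 5.46-fold in the transgenic and 8.12-fold in the WT library above the next class. It rests on few molecules: after thinning each cell to 5000 UMIs, 13.3% of transgenic and 10.9% of WT delta cells held a Neurog3 UMI (23.1% and 21.01% unthinned), against 0% and 0.461% of no-hormone cells. The 0 of 207 transgenic no-hormone cells allow a share of up to 1.45% by a count of 3. Hhex (chromosome 19, 37434810 to 37440731) was 5.29-fold in the transgenic and 8.06-fold in the WT library above the next class. A Hhex UMI was found in 46.2% of thinned transgenic and 42.9% of WT delta cells (65.3% and 66.4% unthinned), against 0.589% and 0.619% of beta cells, whose median depth was 29054 and 23153 UMIs before thinning. No-hormone cells held it in 10.1% and 15.7%; endothelial cells, which also make Hhex, can be among them.

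Several of the named genes are known from neurons. Gap43, a growth cone protein, was at 77 scaled CPM in the transgenic and 66.9 scaled CPM in the WT library, 5.01-fold in the transgenic and 9.64-fold in the WT library above the next class. Nptx2, a secreted pentraxin of synapses, was at 57.3 scaled CPM in the transgenic and 53.4 scaled CPM in the WT library, 4.98-fold in the transgenic and 6.06-fold in the WT library above it. Syt1, the fast calcium sensor of vesicle release, was at 33.4 scaled CPM in the transgenic and 33.2 scaled CPM in the WT library, 5.201-fold in the transgenic and 4.59-fold in the WT library above it. In beta cells Syt1 was at 0.463 and 0.789 scaled CPM, the lowest of the classes. Dpp6, an auxiliary subunit of potassium channels, was at 62.7 scaled CPM in the transgenic and 65.2 scaled CPM in the WT library. Surface and secreted proteins made up most of the rest. Cd24a, a small surface glycoprotein, was at 439 scaled CPM in the transgenic and 436 scaled CPM in the WT library and was found in 92.4% and 95.8% of thinned delta cells. No-hormone cells held Cd24a in 41.5% and 60.8%, so it marks delta cells among the endocrine classes but not among all cells. Dlk1, a Notch ligand relative, was at 39.4 and 58.5 scaled CPM and Mest, like Dlk1 an imprinted gene, at 55.8 and 43.3. Of the remaining named genes, Traf5 (an adaptor of tumour necrosis factor receptors), Ly6h, Fam159b and Arg1 lay between 2.93- and 6.01-fold above the next class.

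**Figure D3:**
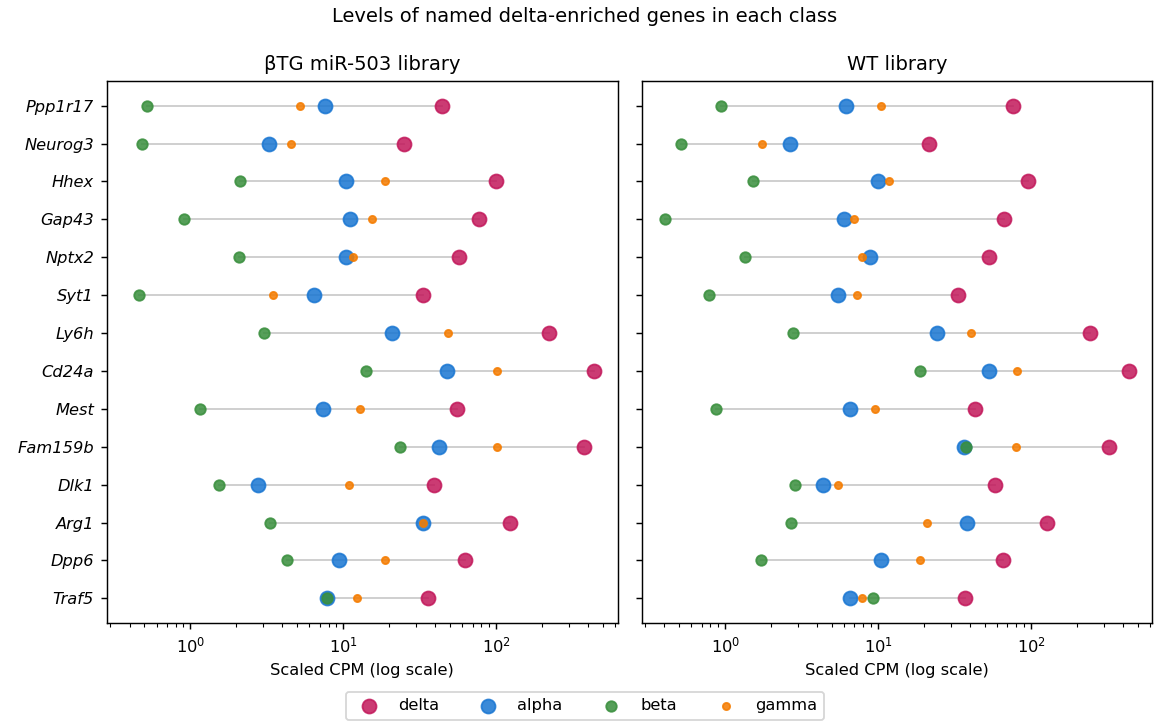
Scaled CPM (log axis) of named genes in delta, alpha, beta and gamma cells, with the βTG miR-503 library left and the WT library right; each point is 1 sum over the cells of a class. In both panels the delta point lies farthest right for every gene, and the order of the genes was set by the smaller of the folds of the libraries.

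Fewer genes were low in delta cells. Among 3472 genes with enough UMIs in the other classes, 15 (0.432%) were at least 2-fold lower in delta cells than in each of them in both libraries. Wnt4, a secreted Wnt ligand, was at 31.04 scaled CPM in the transgenic and 29.8 scaled CPM in the WT library, against 164 to 205 and 172 to 232 in the other classes. Tmsb15b2, an actin-binding thymosin, was at 19.7 scaled CPM in the transgenic and 12.4 scaled CPM in the WT library, against 327 and 260.0 in alpha cells. Ddc, which makes dopamine and serotonin from their precursors, was at 9.85 scaled CPM in the transgenic and 11.8 scaled CPM in the WT library, against 144 and 148 in beta cells. Ociad2 and the glutaredoxin gene Glrx completed the named genes, Glrx with 19 and 4 delta UMIs. Mt2, a metallothionein that binds zinc and copper, was also among the 15 and is singled out after its values were seen. It was at 439 scaled CPM in the transgenic and 377 scaled CPM in the WT library in delta cells and 1729 and 3383 in beta cells.

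Transcription factors of islet cells formed the first list. The list members set against other classes here and below were picked for their known roles after their values were seen. Of 17 measured members of 24 (at least 50 delta UMIs), 4 were highest in delta cells in both libraries, while 15.1% of all 6745 genes at that depth were. Isl1, a LIM factor of all endocrine cells, was 1.29-fold in the transgenic and 1.49-fold in the WT library above the next class. Pdx1, a factor of beta and delta cells, was at 47.7 scaled CPM in the transgenic and 54 scaled CPM in the WT library, below beta cells (72.9 and 61.1) and above alpha cells (11.98 and 10.9). Nkx6-1, a beta cell factor, was at 12.2 scaled CPM in the transgenic and 12.4 scaled CPM in the WT library with 169 and 162 in beta cells.

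Receptors were thinly covered: 8 of 30 passed 50 UMIs, and 2 of them were highest in delta cells in both libraries. Over all genes at that depth the share was 15.1%. Ffar4 was 1.98-fold in the transgenic and 2.18-fold in the WT library above the next class. Ghsr, the ghrelin receptor, had 8 UMIs in 8 transgenic and 9 UMIs in 9 WT delta cells, and Crhr2, a receptor for urocortins, 14 and 11 UMIs. These counts are too few for a level. Sstr3, a somatostatin receptor, was at 38.8 scaled CPM in the transgenic and 29.8 scaled CPM in the WT library, against 84.7 and 95.8 in beta cells. Ucn3, the urocortin by which beta cells act on delta cells, was at 11.3 and 13.5 in delta and 295 and 325 scaled CPM in beta cells.

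Among ion channels and glucose sensing genes, 4 of 12 measured were highest in delta cells in both libraries, while 15.1% of all genes at that depth were. Cacna1h, a T-type calcium channel, was 2.92-fold in the transgenic and 3.01-fold in the WT library above the next class, and Scn9a, a sodium channel, 1.42-fold in the transgenic and 1.34-fold in the WT library. Abcc8, the sulphonylurea receptor, was at 166 scaled CPM in the transgenic and 143 scaled CPM in the WT library in delta and 206 and 169.7 in beta cells. The glucose transporter Slc2a2 had 17 and 6 delta UMIs, at 5.07 and 3.37 scaled CPM with 88.7 and 114 in beta cells.

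Of the exocytosis machinery 2 of 17 measured genes were highest in delta cells in both libraries, beside 15.1% of all genes at that depth. Among them was the vesicle GTPase Rab3b, at 124 scaled CPM in the transgenic and 131 scaled CPM in the WT library. Rab3b was 1.96-fold in the transgenic and 2.25-fold in the WT library above the next class. Slc30a8, the zinc transporter of insulin granules, was at 34.9 scaled CPM in the transgenic and 30.9 scaled CPM in the WT library, against 392 and 326 in beta cells. Neurite, adhesion and synapse genes counted 7 of 17, beside the same 15.1% of all genes. The axon guidance ligand Efna5 was 3.26-fold in the transgenic and 2.84-fold in the WT library above the next class. The adhesion molecule Dscam was 2.53-fold in the transgenic and 2.66-fold in the WT library above it. Gap43 belongs to that list too. Of the granins, Chgb was 2.09-fold in the transgenic and 1.39-fold in the WT library above the next class, while Chga was at 1985 scaled CPM in the transgenic and 1947 scaled CPM in the WT library, below the 3998 and 4459 of beta cells. Since the members and lists were drawn up with earlier results known, these counts are descriptions.

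Hormones and heat shock genes made up most of the 10 genes with the largest spread among delta cells. Spread was measured as the variance of UMIs over their mean, after thinning each delta cell to 5000 UMIs outside Sst. At a like relative spread this ratio is larger for abundant genes, and the rule itself limits Ppy, Gcg and insulin. Over 5352 genes the median of this ratio was 1.05 in both libraries, the value near 1 that random sampling gives. Ppy led with 108 and 93.1 in the transgenic and WT libraries, followed by Gcg (69.3 and 127), which was high in a few cells only: 10 transgenic and 6 WT members held at least 2% Gcg. Pyy (56.04 and 63.1), Iapp (25.98 and 24.1) and Ins2 (10.9 and 13.01) were the other hormones among the top 10. The nuclear RNA Malat1 stood at 38.5 and 35.3 and Ttr, a thyroxine carrier abundant in alpha cells, at 20.7 and 29.1.

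The inducible heat shock genes were uneven from cell to cell. Hspa1a, an inducible member of the Hsp70 family, stood at 43.3 and 34.2, with a median of 5 UMIs and a highest cell of 249 in transgenic and a median of 8 and a highest cell of 213 in WT cells. Its twin Hspa1b stood at 22.8 and 18.4 and the small chaperone Hspb1 at 14.5 and 16.4. Hspa1a and Hspa1b are near-identical copies, so the split of reads between them is uncertain. Genes of this kind respond to the heat and enzymes of tissue dissociation, and the part of dissociation in their spread was not tested. Further down, at rank 16, Dlk1 was found in 42 of 225 transgenic and 15 of 119 WT cells, with at most 30 and 36 UMIs in a cell. It was singled out after its values were seen.

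Transgenic and WT delta cells were close. Of 4333 genes with at least 100 delta UMIs over both libraries and 20 scaled CPM in either, 96.6% lay within 1.5-fold of each other. At least 2-fold apart in either direction were 12 genes (0.277%). Higher in transgenic delta cells were 8 (0.185%), and lower were 4 (0.0923%). On the same genes the counts were 4 and 6 in alpha, 16 and 9 in beta and 7 and 3 in gamma cells, which hold more UMIs. Of the 8 higher genes, Xist had 517 UMIs in transgenic and 0 in WT delta cells, where a count of 0 allows up to 1.69 scaled CPM. The acinar enzyme Ctrb1 had 100 and 11 UMIs, a log2 ratio of 2.27 (1.37 to 3.32), and was higher in transgenic alpha, beta and gamma cells too (0.87, 1.81 and 3.41). Neither is read as a gene of delta cells. The 12 depended on the cells taken: without members holding at least 2% of Ppy or Gcg 7 genes passed, 2 of them among the 12, and without the 31 cells that held Xist 5 passed, all among the 12. Both settings were chosen after seeing the data and leave fewer UMIs, so fewer genes could be measured.

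Birc3, an inhibitor of apoptosis that is switched on by NF-kappaB, had 126 UMIs in 84 transgenic cells (37.6 scaled CPM) and 22 UMIs in 14 WT cells (12.4 scaled CPM), a log2 ratio of 1.60 (0.94 to 2.33), the highest ratio of the 24 named genes. Its ratio was 0.57 in alpha, 0.19 in beta and 0.61 in gamma cells. After thinning to 5000 UMIs, 20.9% of transgenic and 7.56% of WT delta cells held a Birc3 UMI (37.3% and 11.8% unthinned), against 28.5% and 18.9% of no-hormone cells, 27.6% and 16.9% of alpha and 10.3% and 11.8% of beta cells. In transgenic delta cells the share was below that of no-hormone and alpha cells and above that of beta cells, and in WT delta cells it was the lowest of these classes. How much free RNA adds to it was not tested. Ipo5, an importin that carries proteins into the nucleus, had 110 UMIs in 84 transgenic cells (32.8 scaled CPM) and 24 UMIs in 22 WT cells (13.5 scaled CPM), a log2 ratio of 1.28 (0.63 to 1.98). Its ratio was −0.08 in alpha and −0.18 in beta cells. Bhlhe41, a circadian repressor, had 201 UMIs in 101 transgenic cells (59.99 scaled CPM) and 52 UMIs in 38 WT cells (29.2 scaled CPM), a log2 ratio of 1.04 (0.59 to 1.51), and stood at 0.67 in alpha and −0.16 in beta cells. The Bhlhe41 ratio was 0.81 without the 31 cells that held Xist and 1.64 without members holding at least 2% of Ppy or Gcg.

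Single cells carried part of other ratios. Krtap17-1, a hair keratin associated protein, had 244 UMIs in 69 transgenic cells (72.8 scaled CPM) and 58 UMIs in 25 WT cells (32.6 scaled CPM), a log2 ratio of 1.16 (0.74 to 1.60), but 54 of its transgenic UMIs lay in 1 cell. Without members holding at least 2% of Ppy or Gcg its ratio was 0.21. It stood at −0.17 (−0.39 to 0.05) in alpha, 0.83 (0.76 to 0.91) in beta and 0.60 (0.24 to 0.96) in gamma cells. Ccl5, a chemokine, had 87 UMIs in 34 transgenic cells (25.96 scaled CPM) and 22 UMIs in 20 WT cells (12.4 scaled CPM), a log2 ratio of 1.07 (0.38 to 1.82), with 29 of the transgenic UMIs in 1 cell. Without the members rich in Ppy or Gcg its ratio was 0.39. After thinning, 9.33% of transgenic and 9.24% of WT delta cells held a Ccl5 UMI, against 33.3% and 23.04% of no-hormone cells. Plin3, a lipid droplet coat protein, had 88 UMIs in 72 transgenic cells (26.3 scaled CPM) and 23 UMIs in 21 WT cells (12.9 scaled CPM), a log2 ratio of 1.02 (0.35 to 1.75), with at most 3 in each. Its ratio was 0.22 in alpha, −0.66 in beta and 0.87 (0.26 to 1.49) in gamma cells. H2-Ab1, a chain of MHC class II, stood at 0.92 (0.29 to 1.59) in delta cells and between 0.65 and 0.70 in alpha, beta and gamma cells, so transgenic cells of all classes had more of it. The remaining higher named genes were Slc39a1 (a zinc importer), Socs6 (a signalling suppressor), Coprs, the histone methyltransferase Ehmt2 and Zfp444, with log2 ratios of 0.90 to 0.99. Ehmt2 stood at 1.74 without the members rich in Ppy or Gcg.

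Snhg11, a long noncoding RNA that hosts small nucleolar RNAs, had 65 UMIs in 34 transgenic cells (19.4 scaled CPM) and 103 UMIs in 25 WT cells (57.9 scaled CPM), a log2 ratio of −1.58 (−2.05 to −1.12). The ratio was −0.65 in alpha, −1.60 in beta and −0.05 in gamma cells, and 1 WT cell held 21 of the UMIs. Tmem132b, a transmembrane protein of neurons, had 47 UMIs in 38 transgenic cells (14.03 scaled CPM) and 54 UMIs in 37 WT cells (30.4 scaled CPM), a log2 ratio of −1.11 (−1.71 to −0.52). Pbx3, a homeodomain partner of Hox proteins, had 53 UMIs in 45 transgenic cells (15.8 scaled CPM) and 57 UMIs in 36 WT cells (32.1 scaled CPM), a log2 ratio of −1.02 (−1.59 to −0.45). Mtx1, a protein of the outer mitochondrial membrane, had 52 UMIs in 47 transgenic cells (15.5 scaled CPM) and 56 UMIs in 38 WT cells (31.5 scaled CPM), a log2 ratio of −1.02 (−1.59 to −0.45). These 3 stood between −0.33 and 0.13 in alpha, beta and gamma cells. Ppp1r17, the phosphatase inhibitor first among the delta-enriched genes by that order, had 149 UMIs in 73 transgenic and 135 UMIs in 47 WT cells, a log2 ratio of −0.77 (−1.12 to −0.43). The ratio was 0.30 in alpha, −0.86 in beta and −0.99 in gamma cells. In members below 2% of Ppy and of Gcg its ratio was −0.22. The remaining lower named genes (Galnt18, Katnbl1, Epb41l5, Laptm4b, Tubgcp4, Atp2c1 and Dync1li1) lay between −0.91 and −0.77.

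**Figure D4:**
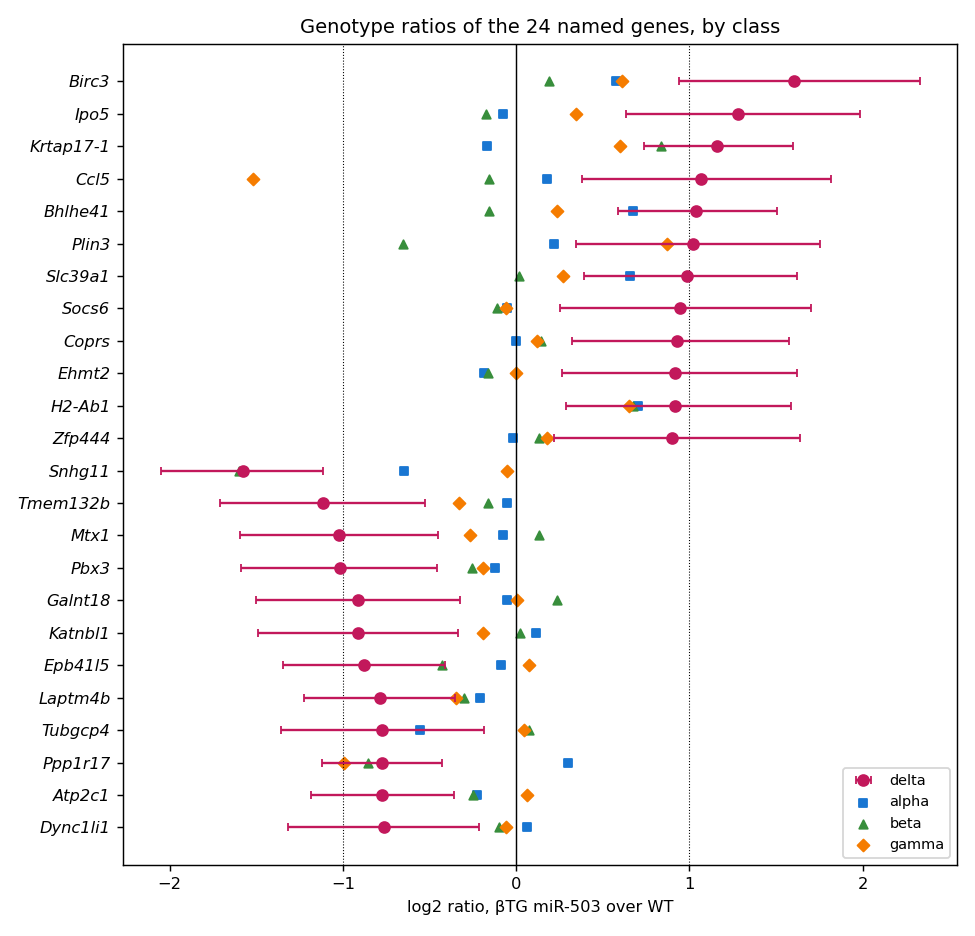
Log2 ratios of βTG miR-503 over WT for the 24 named genes; circles with bars are delta cells with exact conditional binomial 95% intervals (counting error only), and squares, triangles and diamonds are alpha, beta and gamma cells. Dotted lines mark 2-fold. The genes were picked by their delta ratio, which favours alpha, beta and gamma points nearer 0, and most lie there. Snhg11 is as low in beta (−1.60) as in delta cells (−1.58).

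The delta identity genes differed little between genotypes. Hhex stood at a log2 ratio of 0.06 (−0.21 to 0.33), Ly6h at −0.14 (−0.32 to 0.03), Fam159b at 0.22 (0.08 to 0.36), Arg1 at −0.04 (−0.28 to 0.20) and Ffar4 at −0.04 (−0.27 to 0.18). Rbp4 stood at −0.22 (−0.28 to −0.16). Of the 17 transcription factors 10 were higher and 7 lower in transgenic delta cells, with a median of 0.07, beside 49.8% higher, 50.2% lower and a median of −0.0011 over all 6745 genes with at least 50 delta UMIs. Rfx6 stood at 0.91 (0.06 to 1.84), Nkx2-2 at −0.37 (−0.74 to −0.01) and Meis2 at −0.31 (−0.55 to −0.07). The other 14 had intervals that held 0.

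In the secretory pathway islet peptides and granins counted 13 higher and 4 lower (median 0.09), prohormone processing genes 3 higher and 5 lower (median −0.08), exocytosis genes 9 higher and 8 lower (median 0.02), ion channels and glucose sensing genes 5 higher and 7 lower (median −0.05) and receptors 2 higher and 6 lower (median −0.07). None of these medians was beyond 0.1 on the log2 scale. The peptide list includes Sst, Gcg, Ppy and the insulin genes, by which the cells were chosen, and all 5 were among the higher ones. Pcsk2, the convertase that cuts prohormones, stood at −0.09 (−0.16 to −0.02), and Cpe, which trims the cut peptides, at −0.14 (−0.23 to −0.05). Pam, which amidates peptides, stood at 0.26 (0.09 to 0.44). The calcium sensors Syt4 and Syt7 stood at −0.38 (−0.74 to −0.01) and −0.36 (−0.67 to −0.05). Neurite, adhesion and synapse genes had 8 higher and 9 lower, with Cldn4, a tight junction claudin, at −0.17 (−0.27 to −0.07).

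Medians of mitochondrially and of nuclear-encoded respiratory genes had opposite signs in every class. All 12 measured mitochondrially encoded genes were lower in transgenic delta cells, with a median of −0.14, and the medians were −0.10, −0.28 and −0.12 in alpha, beta and gamma cells. The cells had been chosen by a limit on these very UMIs. Of 40 nuclear-encoded subunits 28 were higher and 12 lower in transgenic delta cells, with a median of 0.08, beside 0.04, 0.23 and 0.11 in alpha, beta and gamma cells. Uqcrc1, a core subunit of complex III, stood at 0.68 (0.25 to 1.13) and Sdhc, of complex II, at −0.36 (−0.74 to 0.02).

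Of 13 heat shock chaperones 11 were lower in transgenic delta cells with a median of −0.10, 13 were lower in alpha cells with a median of −0.41, and 10 were higher in beta cells with a median of 0.17. Hsph1, a co-chaperone of Hsp70, stood at −0.28 (−0.37 to −0.18) in delta and −0.83 in alpha cells. Immediate early genes had 8 higher and 10 lower (median −0.09). Fos, an early response factor, had 194 transgenic and 176 WT UMIs and stood at −0.77 (−1.08 to −0.47), with −0.77 in alpha cells. It was at 57.9 and 99 scaled CPM in delta and 461 and 535 in beta cells, and the part of free RNA in its delta value was not tested. Junb, a partner of Fos, stood at 0.37 (0.22 to 0.52). Chaperones and sensors of the endoplasmic reticulum had 11 higher and 12 lower (median −0.02), and antioxidant genes and metallothioneins 7 and 10 (median −0.04). Gclm, a subunit of the enzyme that starts glutathione synthesis, stood at −0.67 (−0.96 to −0.38). Mt1, a metallothionein, stood at 0.33 (0.25 to 0.42) in delta, 0.73 in alpha and −0.74 in beta cells. Its level was 1182 and 938 scaled CPM in delta and 4267 and 7129 in beta cells. The chaperone median was 0.02 with an Sst limit of 5%.

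Of 23 senescence genes 11 were measured, of which 9 were higher and 2 lower in transgenic delta cells, beside 49.8% higher over all genes. Their median was 0.38, and 4 of the 11 had intervals above 0. The medians were 0.36 in alpha, −0.12 in beta and 0.32 in gamma cells. Igfbp7, a secreted binding protein, stood at 0.38 (0.24 to 0.53), the chemokine Cxcl10 at 0.54 (0.00032 to 1.11) and Cdkn1a, the cell cycle inhibitor p21, at −0.13 (−0.30 to 0.05). Cxcl1 had 68 and 9 UMIs, under the minimum for named genes. When members with at least 2% of Ppy or Gcg were left out, its median was 0.14.

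Sterol and fatty acid synthesis, interferon and MHC lists were near evenly split in delta cells. Without members holding at least 2% of Ppy or Gcg, the sterol median was 0.27 and the interferon median −0.41. Sterol and fatty acid genes had 8 higher and 8 lower (median 0.03), while in beta cells 1 was higher and 15 lower (median −0.39). Interferon-induced genes had 6 and 6 (median −0.03), with Ifit1, an antiviral RNA-binding protein, at −0.16 (−0.47 to 0.15) in delta and −1.22 in beta cells. MHC class I genes had 5 and 5 (median 0.01), with B2m, the light chain of MHC class I, at 0.58 (0.27 to 0.89). Of 26 cell cycle genes 2 passed 50 UMIs, so no list value is given.

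**Figure D5:**
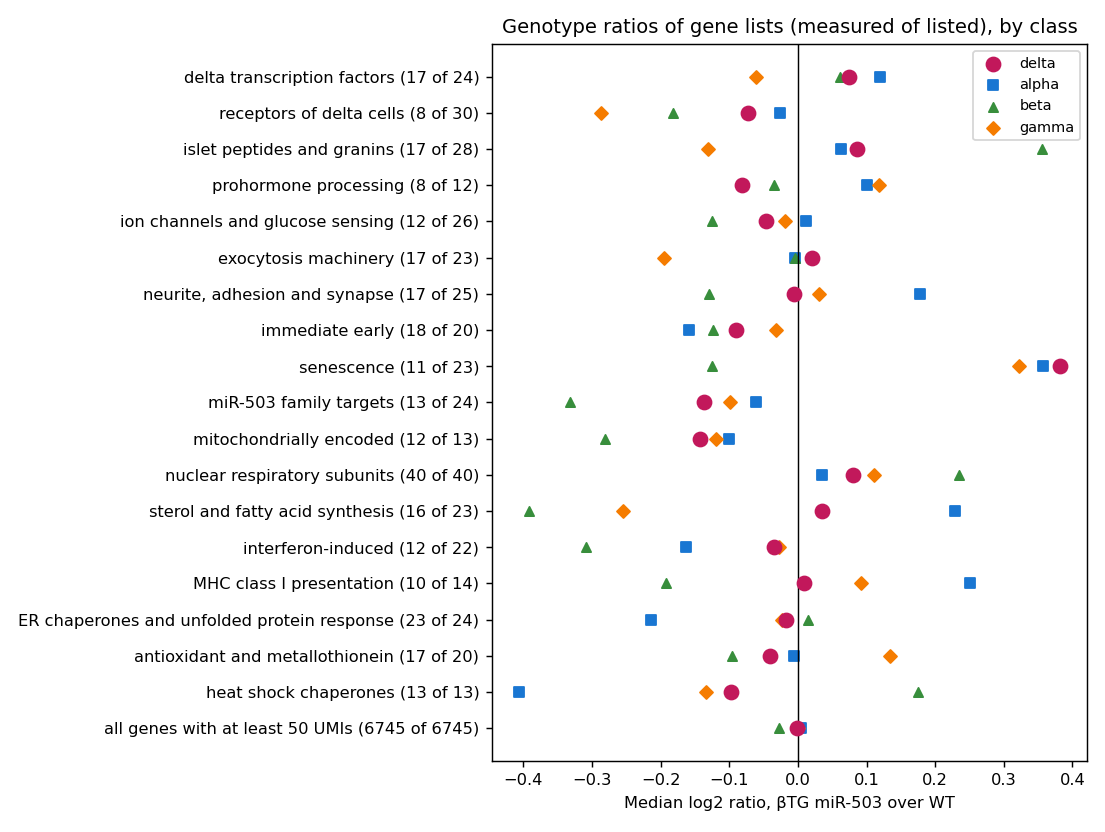
Median log2 ratio of βTG miR-503 over WT for each gene list and for all genes with at least 50 delta UMIs; large circles are delta cells, and squares, triangles and diamonds are alpha, beta and gamma cells, on the same members. Delta medians run from −0.14 (mitochondrially encoded) to 0.38 (senescence), and the median over all genes is −0.0011.

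The transgene is labelled beta cell specific, so targets of miR-503 were read in delta cells beside them. Of 13 measured genes from a list of targets described for the miR-503 family, 6 were higher and 7 lower in transgenic delta cells, with a median of −0.14, against 1 higher and 12 lower with a median of −0.33 in beta cells. Ccnd3, a D-type cyclin, was at 37.6 scaled CPM in transgenic delta cells, against 57.9 scaled CPM in WT delta cells, a log2 ratio of −0.62 (−1.01 to −0.23), with −0.57 in alpha and −0.42 in beta cells. Its relatives Ccnd1 and Ccnd2 stood at 0.10 (−0.28 to 0.49) and 0.17 (0.04 to 0.29). The sign of the delta median depended on the cells taken: it was 0.041 with an Sst limit of 5%, 0.011 with every cell weighted equally and 0.019 without members holding at least 2% of Ppy or Gcg.

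The seed printed above gave a list that does not rest on earlier reports. In the GENCODE M21 annotation, a 3' untranslated region with CGCTGCT, the match to bases 2 to 8, was found for 286 of the 4333 genes (6.601%). In delta cells 139 of them were higher and 147 lower, which is 51.4% lower with a median of −0.01, beside 50.1% and −0.0011 over all genes. In alpha cells 51.7% were lower, with a median of −0.0031. Of the same genes 71.3% were lower in beta cells, where the median was −0.12, beside 54.1% and −0.02 over all genes. The same transcripts were thus near evenly split in delta cells and mostly lower in beta cells. The difference between the classes was not tested, delta sums hold far fewer UMIs and scatter more, and a seed match is not a measured site.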

How the data were processed

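Single cells of mouse islets were captured on the 10x 3' v2 chemistry, per the labels' protocols, in 1 transgenic and 1 WT library. The deposited values are raw counts of UMIs per gene and cell barcode, made by the authors with Cell Ranger 2.1.0 and STAR 2.5.1b on mm10, per the submitters' processing notes; the annotation release is not given in the sources used here. Of 27998 genes in the files, 27722 matched GENCODE M21, which supplied coordinates and 3' untranslated regions. The members and the 19 gene lists were chosen with earlier results of these data known.

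Classes followed the hormone limits given above, after removal of 7 transgenic and 17 WT barcodes over 10% mitochondrial UMIs. UMIs were summed per class and library, and the 8 sums were scaled with TMM. Delta cells were set against other classes for genes with at least 50 delta UMIs and 20 scaled CPM, and between genotypes for genes with 100 or more UMIs in all and 20 scaled CPM in either library. Lists used members with at least 50 UMIs. Ratios have exact conditional binomial and shares exact Clopper-Pearson intervals (95%), which cover counting error only. Limits for 0 counts rest on 3 counts. Cells were thinned to 5000 UMIs for shares of cells with a UMI, and delta cells to 5000 UMIs outside Sst for spread, cells below that depth being left out.

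Named genes were those with the 15 largest folds over the next class (the smaller of both libraries, without Sst and with at least 100 delta UMIs in all and 20 scaled CPM in each library), the 5 lowest, the 12 highest and 12 lowest genotype ratios without hormones, sex-linked genes, markers of other cell types and genes that another class held at more than 5 times the level, all delta markers, up to 3 per list and direction, and the 10 with the largest spread. Alternatives were other Sst, insulin and mitochondrial limits, total UMI and median-of-ratios scaling, no CPM minimum, equal weight per cell, removal of the highest 4% of Scrublet scores, and another denominator. Added after seeing the data were leaving out members rich in Ppy or Gcg, alpha and gamma cells rich in Sst, cells with Xist, and shared barcodes. The scripts were tested on simulated data. Python 3.11.15, numpy 2.4.6, scipy 1.17.1, pandas 2.3.3, scanpy 1.11.5 and matplotlib 3.10.9 were used. Each group has 1 library, so no test was run. Some items are not reported here.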

Additional observations from a re-analysis of the deposited data

Results flagged for a closer look

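Among the genes named for the 12 highest and 12 lowest delta ratios, 7 had opposite signs in delta and beta cells. The ratios are log2 of transgenic over WT cells, and the intervals of these 7 excluded 0 in both classes. The genes were picked by their delta ratio, which favours delta intervals away from 0. The share of such genes over all measured genes was not counted. The difference between the classes was not tested, since each genotype has 1 library, and the intervals cover counting error only. Higher in transgenic delta and lower in transgenic beta cells were 5 genes. The importin Ipo5 stood at 1.28 (0.63 to 1.98) in delta and −0.18 (−0.28 to −0.08) in beta cells. The chemokine Ccl5 stood at 1.07 (0.38 to 1.82) in delta and −0.16 (−0.27 to −0.04) in beta cells. Of its 87 UMIs in transgenic delta cells, 29 lay in 1 cell, which the delta interval does not take into account. After thinning, a Ccl5 UMI was found in 9.33% of transgenic and 9.24% of WT delta cells. The circadian repressor Bhlhe41 stood at 1.04 (0.59 to 1.51) in delta and −0.16 (−0.22 to −0.09) in beta cells. The lipid droplet protein Plin3 stood at 1.02 (0.35 to 1.75) in delta and −0.66 (−1.14 to −0.19) in beta cells, where its level was 1.12 scaled CPM in transgenic and 1.76 in WT cells. In gamma cells its ratio was 0.87 (0.26 to 1.49). The histone methyltransferase Ehmt2 stood at 0.92 (0.26 to 1.62) in delta and −0.16 (−0.25 to −0.07) in beta cells. The outer mitochondrial membrane gene Mtx1 was lower in transgenic delta cells, at −1.02 (−1.59 to −0.45) in delta and 0.13 (0.02 to 0.25) in beta cells. Galnt18, which starts mucin-type glycans, was lower in them too, at −0.91 (−1.50 to −0.33) in delta and 0.24 (0.16 to 0.31) in beta cells.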

How the results depend on the processing

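The difference in Sst share between transgenic and WT delta cells, 1.46 percentage points, was 1.76 with an Sst limit of 1%, 0.942 with 5%, 1.23 with insulin below 5%, and 3.40 (13.2% transgenic, 9.79% WT) without members holding at least 2% of Ppy or Gcg. Without those members the difference in the share of delta cells was 0.490 points instead of 2.79. The 62 genes higher in delta cells became 226 with total UMIs and 38 without the members rich in Ppy or Gcg, and lay between 60 and 89 otherwise. The 12 genes apart between genotypes became 7 without those members and 5 without cells holding Xist, and lay between 10 and 15 otherwise. The median of the miR-503 target list, −0.14, was 0.041 with an Sst limit of 5%, 0.011 with cells weighted equally and 0.019 without the members rich in Ppy or Gcg; the cause was not tested. Of single gene ratios 284 moved by less than their interval under an alternative and 4 by more. Of list medians 200 and 13 did so, and 3 were counted as reversed. That count does not cover every change of sign. Over the alternatives the heat shock median ran from −0.14 to 0.02 and the transcription factor median from −0.04 to 0.13. Delta cells gave 2366742 transgenic and 1224416 WT UMIs, which limits ratios of genes with few UMIs. No paired analysis was possible because each genotype has 1 library.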

Other observations

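Droplets with at least 10% insulin and at least 2% Sst, Sst being above Gcg and Ppy, belong to no class of the report and numbered 16 in the transgenic and 21 in the WT library. Their median depth was 30293 and 24328 UMIs, against 9425 and 8803 for delta cells. Alpha and gamma cells with at least 2% Sst numbered 112 in the transgenic and 62 in the WT library, and without them 76 in place of 62 genes were at least 2-fold higher in delta cells than in each other class.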
